A study of Mus musculus with 20 samples.

Results

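The 9 genes described here belong to epithelia that border the retina or the brain, to the retinoid visual cycle or to pigment formation: Rpe65, Rdh5, Rbp4, Ttr, Dct, Oca2, Krt18, Aqp1 and Folr1. They were found by the gene symbol of the platform annotation, which gave 9 probes, 1 for each gene, of 10500 probes and 9230 named genes on the array. All 9 were among the 10339 probes tested. The study compared RNA of 2 mouse pools on the GE Healthcare (Amersham) CodeLink array, on which biotin-labelled RNA is hybridised in a single colour, to measure how far expression values vary within a platform and between sites. One pool, called retina here, was total RNA of retinas of adult C57/B6 mice. The other, called cortex, was total RNA of the cortex of newborn (P1, postnatal day 1) Swiss-Webster mice. Both were hybridised 5 times at each of 2 sites, in all 20 arrays in 4 groups: retina and cortex of the first site, and retina and cortex of site 2. Both the source name and the design text give the retina as adult, while its sample titles carry a code, MRP1, that the labels do not explain. No treatment or engineered allele is named in the labels. The labels call the arrays of a group technical replicates, so each p-value measures the spread between arrays of 1 pool and not between animals. Tissue, strain and age differ together between the pools and cannot be told apart. As background, C57/B6 mice are pigmented and Swiss-Webster mice are albino.

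The retinal pigment epithelium is a single sheet of pigmented cells behind the photoreceptors. It takes up retinol from the blood, turns the spent chromophore back into its light-sensitive form in a chain of reactions called the visual cycle, engulfs shed outer segments, and moves water and nutrients between the choroid and the retina. The choroid plexus, the epithelium that makes the cerebrospinal fluid in the brain ventricles, uses some of the same genes, among them Ttr, Aqp1, Folr1 and Krt18. Melanin is made in melanosomes of the pigment epithelium and of melanocytes. Whether pigment epithelium, choroid or choroid plexus was left on the dissected tissues is not stated in the labels, and in RNA of a whole tissue fewer cells of a type and less RNA per cell cannot be told apart.

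Intensities are on a linear scale on which 1 lies near the median probe of an array: array medians ran from 0.927 to 0.963. The number of arrays limits the precision. Retina arrays carried retina markers and cortex arrays cortex markers. All 10 photoreceptor genes tested were called higher in retina at both sites, and first-site intensities summed over them were 496 to 623 on retina arrays and 22.4 to 31.8 on cortex arrays. Of 10 genes of cortical neurons and progenitors, 8 were called lower in retina at each site. A single array stood apart: replicate 5 of cortex at site 2 was the array farthest from the other 4 of its group, by Dixon's criterion, on 17.7% of probes, against at most 3.27% on any other array. Values at site 2 are therefore also given without it where they rest on it. The 25th percentile of all intensities was 0.194, a level used here to mark dim values because no detection flag was used.

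Of the 9 genes, 6 were higher in retina at both sites: Rpe65, Rdh5, Dct, Krt18, Aqp1 and Folr1. In limma, a gene was called when its adjusted p was under 0.05 and it differed at least 2-fold. At the first site 6 members were called higher and 1, Oca2, lower, while 11.9% of all probes tested were called higher and 13.0% lower (24.9% in all). At site 2, 6 were called higher and 1, Ttr, lower, against 11.1% and 13.5% of all probes (24.6% in all). With the adjusted p alone all 9 passed at both sites, as did 59.9% of probes at the first site and 60.4% at site 2. Called higher at both sites were 6 of 9 members and 9.31% of all probes. The remaining 2 differences at each site were below 2-fold and pointed to cortex. The median log2 difference, retina minus cortex, was 3.79 over the members at the first site and -0.04 over all probes, and 2.71 over the members at site 2 and -0.05 over all probes. Without cortex replicate 5 of site 2, the median at that site was 3.32 over the members and -0.09 over all probes. At the first site the 5 retina arrays did not overlap the 5 cortex arrays for any of the 9 genes, which was so for 53.3% of all probes. At site 2 the groups were separate for 7 genes, against 48.2% of probes. Without replicate 5 of cortex they were separate for all 9, but the share of all probes without that array was not counted.

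**Figure D1:**
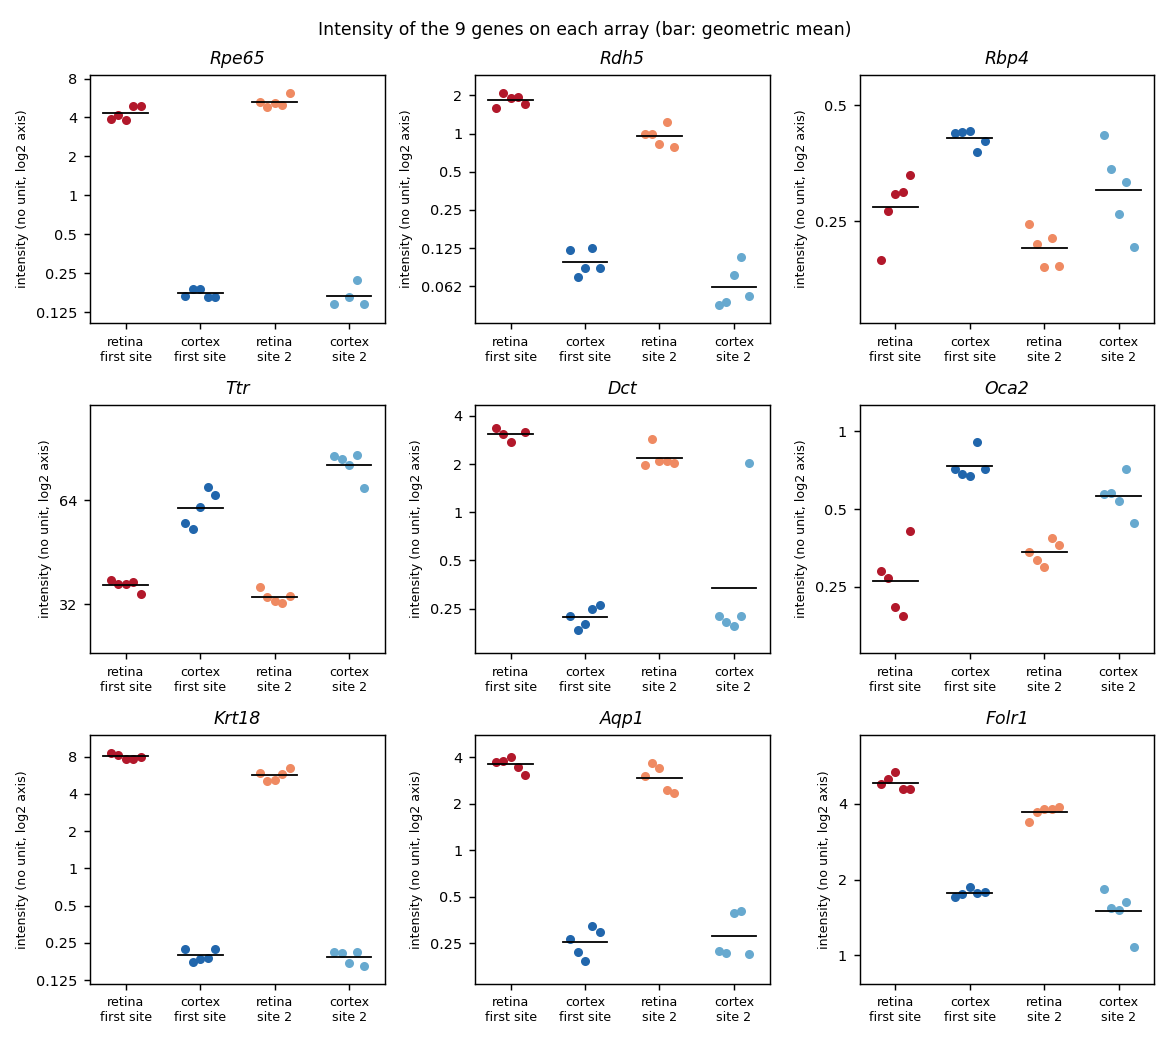
Intensity of the 9 genes on each of the 20 arrays (log axis), with retina to the left of cortex at each site; points are arrays and lines are geometric means. Rpe65, Rdh5, Krt18 and Aqp1 in retina lie far above cortex at both sites, Ttr and Oca2 lie lower in retina at both sites, and the single high Dct point in cortex at site 2 is replicate 5, at 2.04.

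Rpe65 is the isomerohydrolase of the visual cycle, the enzyme of the pigment epithelium that converts all-trans retinyl esters to 11-cis retinol. On the 5 retina arrays of the first site it read 3.93, 4.19, 3.83, 4.90 and 4.94, against 0.168, 0.189, 0.190, 0.164 and 0.164 on the cortex arrays. The site 2 values were 5.26, 4.85, 5.17, 5.00 and 6.14 in retina, against 0.145, 0.163, 0.221 and 0.144 in cortex, where replicate 2 was blank. Every retina array was thus far above every cortex array, and the cortex values were dim: 5 of 5 first-site values and 3 of 4 site 2 values lay under the 25th percentile of all intensities. This gave a log2 difference of 4.63 at the first site (SE 0.11, 95% interval 4.39 to 4.87, adjusted p = 2.6e-16), and 4.99 at site 2 (SE 0.12, 95% interval 4.73 to 5.25, adjusted p = 1.9e-16, with 4 cortex arrays). As ratios of geometric means these were 24.8 and 31.8.

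Rdh5 encodes the 11-cis retinol dehydrogenase that follows Rpe65 in the cycle and yields 11-cis retinal. It read 1.59, 2.08, 1.91, 1.93 and 1.72 in retina at the first site, against 0.121, 0.0739, 0.0880, 0.126 and 0.0876 in cortex. At site 2 the retina arrays read 0.991, 0.986, 0.833, 1.23 and 0.776, and the cortex arrays 0.0448, 0.0475, 0.0765, 0.106 and 0.0522. Retina was dimmer at site 2 than at the first site on every array, and all 10 cortex values lay under the 25th percentile of all intensities. Rdh5 differed by 4.24 on the log2 scale at the first site (SE 0.21, 95% interval 3.80 to 4.68, adjusted p = 1.3e-12) and 3.94 at site 2 (SE 0.21, 95% interval 3.51 to 4.38, adjusted p = 4.1e-12). The direction of the difference is therefore better measured than its size: with all values under the 25th percentile raised to that percentile, the differences were 3.24 and 2.29, and both remained called. In the RefSeq table the Rdh5 gene overlaps Bloc1s1, and where the probe lies and on which strand is not known here.

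The stretches of 250 bases before the annotated starts of the 2 visual cycle enzymes and of the 2 pigment genes are shown because the first pair, of a shared pathway, was higher in retina throughout, while the second pair, of another, differed in opposite directions. They come from RefSeq, build GRCm38.p6, and are written 5′ to 3′ in the direction of the gene. Capitals mark matches on either strand to CATGTG, the core of the M-box bound by Mitf, a pigment cell factor, and to TAATCC, the core bound by Otx2 and Crx. CACGTG, another E-box read by Mitf, was also searched and was found in none of the windows of the 7 members that had one.
Rpe65, chr3:159598931-159599180, plus strand: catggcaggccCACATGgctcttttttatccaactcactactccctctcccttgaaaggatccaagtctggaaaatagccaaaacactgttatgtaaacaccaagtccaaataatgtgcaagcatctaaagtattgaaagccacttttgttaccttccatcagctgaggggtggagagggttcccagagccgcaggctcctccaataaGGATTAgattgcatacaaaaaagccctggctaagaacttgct
Rdh5, chr10:128919298-128919547, minus strand: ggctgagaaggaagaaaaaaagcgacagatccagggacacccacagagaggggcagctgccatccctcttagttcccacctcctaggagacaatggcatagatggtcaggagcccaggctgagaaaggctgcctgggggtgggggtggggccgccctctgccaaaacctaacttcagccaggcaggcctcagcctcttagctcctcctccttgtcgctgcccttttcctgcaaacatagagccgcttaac
Dct, chr14:118052247-118052496, minus strand: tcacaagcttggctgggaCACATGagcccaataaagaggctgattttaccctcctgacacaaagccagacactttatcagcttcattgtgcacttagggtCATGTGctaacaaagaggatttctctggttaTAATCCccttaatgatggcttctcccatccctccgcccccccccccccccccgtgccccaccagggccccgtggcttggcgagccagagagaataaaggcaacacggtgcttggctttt
Oca2, chr7:56239509-56239758, plus strand: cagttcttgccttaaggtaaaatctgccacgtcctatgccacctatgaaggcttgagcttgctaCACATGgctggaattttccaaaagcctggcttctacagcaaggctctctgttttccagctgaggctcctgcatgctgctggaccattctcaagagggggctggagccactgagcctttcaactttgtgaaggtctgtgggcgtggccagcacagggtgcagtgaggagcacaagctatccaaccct

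In the Rpe65 window CATGTG lay on the opposite strand with its first base at -239, counted from the gene start, and TAATCC on the opposite strand at -42. The Dct window held CATGTG at -232 on the opposite strand and at -150 on the strand of the gene, and TAATCC at -119 on the strand of the gene. The Oca2 window held 1 match, CATGTG at -186 on the opposite strand. The windows of Rdh5, Krt18, Aqp1 and Rbp4 held none of the 3 motifs. Of all 32851 windows of this length, 12.3% held CATGTG, 6.02% CACGTG and 6.25% TAATCC, and 22.9% held at least 1 of them. A match describes letters only, and Dct and Oca2, which both hold CATGTG, differed in opposite directions between the tissues.

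Rbp4 and Ttr encode the carriers that bring retinol through the blood: Rbp4 binds retinol, and Ttr, transthyretin, binds Rbp4 and also thyroxine. Neither was higher in retina. Ttr was bright in both tissues, with 37.5, 36.6, 36.8, 37.1 and 34.2 in retina at the first site, against 54.9, 52.8, 61.4, 70.1 and 66.5 in cortex. At site 2 it read 35.9, 33.7, 32.6, 32.3 and 33.7 in retina and 85.8, 84.3, 80.7, 86.4 and 69.6 in cortex. Cortex was above retina on every array, and retina kept nearly the same level at both sites. Ttr differed by -0.74 on the log2 scale at the first site (SE 0.08, 95% interval -0.91 to -0.57, adjusted p = 1.4e-07), below the 2-fold limit, and -1.27 at site 2 (SE 0.08, 95% interval -1.44 to -1.10, adjusted p = 5.7e-11), a ratio of 0.415. After quantile normalization between arrays the differences were -1.02 and -1.01, both past the 2-fold limit. In the RefSeq table the Ttr gene overlaps Gm16090.

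Rbp4 lay under the 25th percentile on 2 of 5 retina arrays of site 2 and on no array of the other groups. It read 0.198, 0.265, 0.294, 0.297 and 0.329 in retina at the first site, against 0.424, 0.426, 0.430, 0.377 and 0.403 in cortex. The site 2 arrays read 0.246, 0.218, 0.190, 0.225 and 0.191 in retina, against 0.419, 0.342, 0.260, 0.316 and 0.213 in cortex, so that cortex replicate 5 fell within the retina range. The log2 difference was -0.59 at the first site (95% interval -0.92 to -0.27, adjusted p = 0.0025) and -0.50 at site 2 (95% interval -0.83 to -0.18, adjusted p = 0.0083). Both were below 2-fold. After quantile normalization the site 2 value was -0.25 (adjusted p = 0.18), and without cortex replicate 5 it was -0.63 (adjusted p = 6.9e-04 in limma).

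Dct and Oca2 are pigment genes that went opposite ways. Dct, dopachrome tautomerase, carries out a step of eumelanin synthesis. It read 3.35, 3.07, 2.76 and 3.16 in retina at the first site, where replicate 4 was blank, against 0.224, 0.184, 0.200, 0.249 and 0.263 in cortex. At site 2 it read 1.98, 2.89, 2.09, 2.09 and 2.02 in retina, against 0.226, 0.206, 0.195, 0.225 and 2.04 in cortex. Cortex replicate 5 of site 2 alone lay within the retina range, and the other 4 cortex arrays lay about as low as at the first site. For Dct the log2 difference was 3.79 at the first site (SE 0.49, 95% interval 2.77 to 4.82, adjusted p = 2.0e-06, with 4 retina arrays) and 2.71 at site 2 (SE 0.46, 95% interval 1.74 to 3.68, adjusted p = 5.0e-05). Without cortex replicate 5 of site 2 the site 2 difference was 3.37 (adjusted p = 1.3e-13 in limma), and the ratio of 6.55 with all 5 arrays carries its value. That array also enters the shared estimate of the spread. Without it the first-site difference was still 3.79, with an adjusted p of 2.2e-14 in limma.

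Oca2 encodes a melanosome membrane protein, known as the P protein, that sets the pH in the melanosome. It read 0.287, 0.271, 0.209, 0.193 and 0.410 in retina at the first site, against 0.714, 0.683, 0.674, 0.905 and 0.715 in cortex. At site 2 it read 0.342, 0.316, 0.297, 0.387 and 0.363 in retina, against 0.571, 0.579, 0.537, 0.712 and 0.443 in cortex. The 2 tissues did not overlap at either site, and the gap was narrower at site 2. The log2 difference was -1.47 at the first site (SE 0.17, 95% interval -1.83 to -1.12, adjusted p = 2.6e-07), a ratio of 0.360, and -0.73 at site 2 (95% interval -1.08 to -0.37, adjusted p = 9.1e-04), a ratio of 0.605 and not called. Both tissues were under the median probe of an array for this gene.

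Krt18 had the largest difference of the 9 at the first site. It encodes a keratin of simple epithelia, a type I chain that assembles with the type II chain Krt8. It read 8.55, 8.28, 7.71, 7.69 and 7.92 in retina at the first site, against 0.224, 0.176, 0.186, 0.190 and 0.223 in cortex. On the site 2 arrays it read 5.93, 5.10, 5.22, 5.80 and 6.47 in retina, against 0.212, 0.208, 0.172, 0.212 and 0.164 in cortex. Retina was thus lower at site 2 on every array while cortex stayed at the same low level. On the log2 scale the difference was 5.34 at the first site (SE 0.09, 95% interval 5.14 to 5.53, adjusted p = 1.8e-18) and 4.88 at site 2 (95% interval 4.69 to 5.08, adjusted p = 3.9e-18), ratios of 40.4 and 29.5. Its partner Krt8 was called at neither site: the log2 difference of Krt8 was 0.81 at the first site (adjusted p = 0.011) and 0.47 at site 2 (adjusted p = 0.13), and its first-site mean log2 intensity was low, -3.14 on retina arrays and -3.95 on cortex arrays.

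Aqp1, the water channel of many fluid-moving epithelia and of red cells, read 3.74, 3.81, 4.00, 3.47 and 3.10 in retina at the first site, against 0.266, 0.220, 0.192, 0.325 and 0.295 in cortex. At site 2 it read 3.03, 3.69, 3.43, 2.48 and 2.35 in retina, against 0.222, 0.217, 0.394, 0.406 and 0.215 in cortex. The lowest retina array was well above the highest cortex array at both sites. Aqp1 differed by 3.82 on the log2 scale at the first site (SE 0.20, 95% interval 3.41 to 4.24, adjusted p = 3.0e-12) and 3.41 at site 2 (95% interval 2.99 to 3.83, adjusted p = 1.8e-11), ratios of 14.2 and 10.6.

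Folr1 encodes folate receptor alpha, which binds folate at the surface of epithelial cells and takes it up. It read 4.77, 5.03, 5.35, 4.55 and 4.58 in retina at the first site, against 1.71, 1.75, 1.87, 1.76 and 1.78 in cortex. Values of site 2 were 3.37, 3.70, 3.82, 3.82 and 3.87 in retina, against 1.83, 1.55, 1.51, 1.63 and 1.08 in cortex. Folr1 was above the median probe on every cortex array too, which no other of the 6 genes higher in retina was. In the RefSeq table it overlaps Gm35597. Folr1 differed by 1.45 on the log2 scale at the first site (SE 0.10, 95% interval 1.24 to 1.66, adjusted p = 2.8e-10) and 1.31 at site 2 (95% interval 1.09 to 1.52, adjusted p = 1.3e-09), ratios of 2.73 and 2.48.

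**Figure D2:**
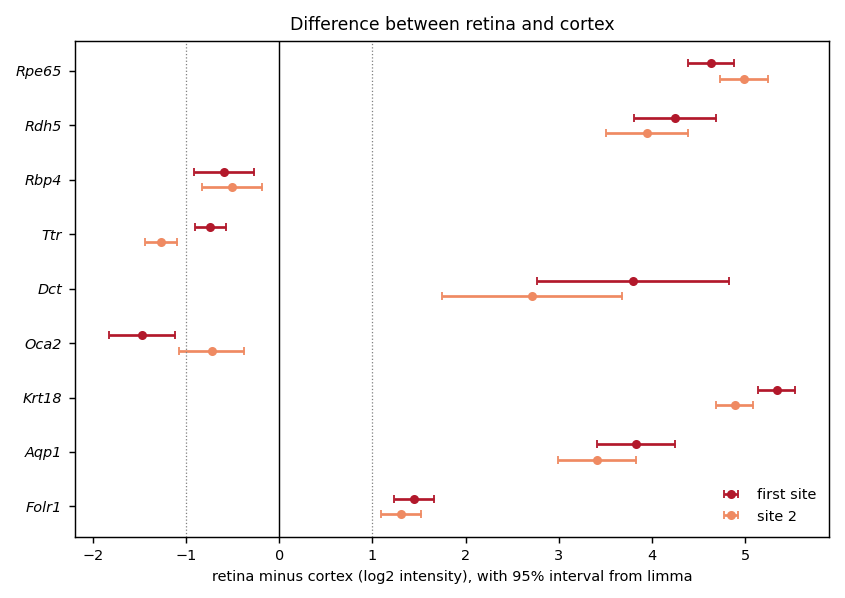
Log2 difference of intensity, retina minus cortex, of each gene at both sites, with 95% intervals from limma; dotted lines mark 2-fold. The 6 genes higher in retina lie right of 2-fold at both sites, Rbp4 lies between the lines at both, and Ttr and Oca2 each lie past the line on the cortex side at 1 site only.

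Other genes of the same pathways were read from lists of known members. Not every list gene was tested. With the genes described here counted in, those tested were 17 of 27 for the visual cycle and 18 of 27 for melanin. For pigment epithelium they were 17 of 25, and for choroid plexus 14 of 26. Of 14 further genes of the visual cycle and of retinoid handling, 7 were called higher and 1 lower in retina at both sites, with median log2 differences of 1.58 and 1.18 (first site, then site 2, as in the pairs of values that follow). The largest was Rrh, peropsin, an opsin of the pigment epithelium, at 6.29 and 5.80. Abca4, the retinoid transporter of photoreceptor discs, differed by 4.30 and 3.99, and Lrat, which makes the retinyl esters that Rpe65 uses, by 2.60 and 2.08. Rlbp1, the retinal-binding protein of pigment epithelium and Müller glia, differed by 2.33 and 2.10. Aldh1a1, a retinal dehydrogenase, differed by 3.19 and 3.29, Dhrs3, a retinal reductase, by 2.63 and 2.55, and Cyp26a1, which degrades retinoic acid, by 2.22 and 1.72, all higher in retina. Aldh1a2, another retinal dehydrogenase, was the 1 gene called lower, at -2.25 and -2.49. Aldh1a3, a further retinal dehydrogenase, differed by -0.92 and -0.62 and stayed below 2-fold. Stra6, the membrane receptor that takes retinol from Rbp4, was not called (0.95 and 0.36).

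Melanin genes that were tested were split. Tyr, Tyrp1, Slc24a5, Mlana and Gpr143 were list genes not among those tested. Of 16 further genes of melanin synthesis and of the melanosome, 5 were called higher in retina and 1 lower at the first site, and 1 higher and 2 lower at site 2, or 2 and 1 without cortex replicate 5. Gpnmb, a melanosome glycoprotein, was called at both sites (1.39 and 1.24). Slc45a2, a melanosome transporter, differed by 1.14 and 0.77, Rab38 by 2.30 and 0.87, Rab27a by 1.64 and -0.14, and Lyst by 1.58 and 0.74, each called at the first site only. The last 3 act in the traffic of melanosomes and related organelles. Without cortex replicate 5, Rab38 was called at site 2 as well, at 1.51. Pmel, which forms the fibrils of the melanosome, differed by 0.62 and -0.06, and Mitf, the pigment cell transcription factor, by 0.47 and 0.91, and neither was called. Mitf was dim in both tissues, with a first-site mean log2 intensity of -4.24 on retina arrays and -4.71 on cortex arrays. Kit, a receptor of melanocyte precursors that neurons also express, was lower in retina at both sites (-2.87 and -2.98). The median over the list with Dct and Oca2 included was 0.47 and 0.03, and the change between the sites was not tested for the list.

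Among 13 further genes of a pigment epithelium list, 4 were called higher and 3 lower at both sites. Those higher were Otx2, a transcription factor also of photoreceptors and bipolar cells (4.41 and 4.49), Slc16a1, a lactate transporter (2.42 and 2.34), Lrat and Rlbp1. Those lower were Serpinf1, pigment epithelium-derived factor (-1.40 and -1.72), Ezr, an organiser of microvilli (-1.30 and -1.57), and Cdh1, E-cadherin (-1.51 and -1.20). Summed over the 13, first-site intensities were 54.7 to 61.1 on retina arrays and 16.9 to 22.9 on cortex arrays, and those of site 2 were 46.6 to 49.3 on retina arrays and 21.2 to 23.9 on cortex arrays. The brightest of the 13 on first-site retina arrays were Otx2, Slc16a1 and Rlbp1, with mean log2 intensities of 4.20, 4.10 and 3.18. On first-site cortex arrays these were -0.20, 1.68 and 0.84. The sum therefore does not show the other genes of the list to be higher in retina. Several genes of the list are also used by photoreceptors, glia or progenitors.

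Of 10 further genes of a choroid plexus list, Otx2 was called higher in retina at each site, while 2 at the first site and 4 at site 2 were called lower, and the medians were -0.37 and -0.70. Msx1, a homeobox factor, differed by -1.81 and -2.09, and Igf2, a growth factor of the plexus and of meninges and vessels, by -1.51 and -1.18, both called at each site. Foxj1, the factor of motile cilia, differed by -0.79 and -1.07, and Lbp by -0.30 and -1.18, each called at site 2. The tight junction gene Cldn2 (0.46 and -0.30) and Sostdc1, a secreted inhibitor of BMP and Wnt signals (-0.47 and -0.30), were not called. Ttr shared the direction of Msx1 and Igf2, whereas Folr1, Aqp1 and Krt18 did not. Summed over the 10 genes, first-site intensities were 22.1 to 25.5 on retina arrays and 11.7 to 13.0 on cortex arrays. Most of the retina sum was Otx2, with a first-site mean log2 intensity of 4.20 on retina arrays and -0.20 on cortex arrays. The sum therefore does not show the other genes of the list to be higher in retina. The part of choroid plexus RNA in these differences was not tested.

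**Figure D3:**
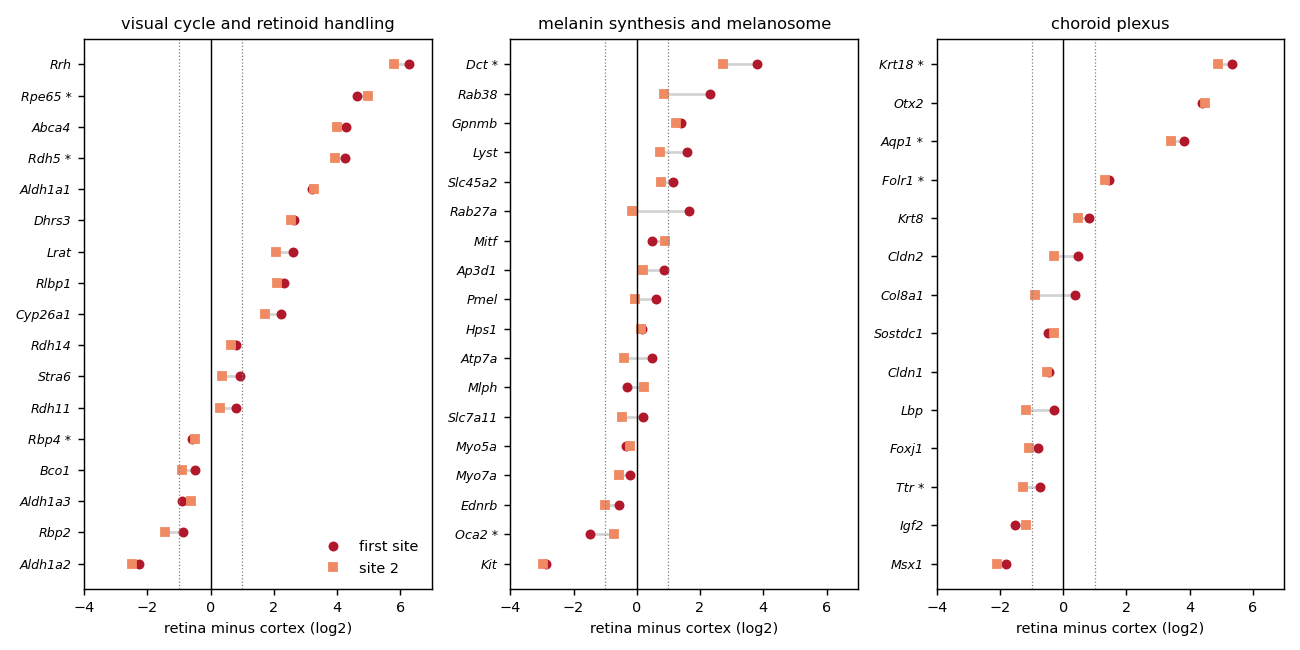
Log2 difference of intensity, retina minus cortex, of every tested gene in the visual cycle, melanin and choroid plexus lists; circles stand for the first site and squares for site 2, asterisks mark the 9 genes described here, and dotted lines mark 2-fold. Visual cycle genes lie mostly to the retina side, with medians of 2.22 and 1.72 over the list, while melanin genes spread around 0, with medians of 0.47 and 0.03.

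Lists for the other roles were mixed too. Of 13 simple epithelium genes tested, 2 were called higher at both sites, Krt18 and the tight junction gene Cldn7 (2.39 and 1.75), and 5 were called lower at the first site and 4 at site 2, among them Krt19 (-2.16 and -1.57) and Epcam (-1.43 and -1.36). Of 17 genes of water and fluid transport, 3 were called higher at each site: Aqp1, Aqp4, the water channel of glia (2.08 and 1.67), and Car2, a carbonic anhydrase (4.00 and 4.32). At the first site 2 were called lower, Aqp3 (-1.68 and -1.86) and Car4 (-2.19 and -2.47), and 4 at site 2, or 2 without cortex replicate 5. Of 12 folate genes, Folr1 was the 1 called higher at each site, and 3 were called lower at the first site and 2 at site 2. Folr2, another folate receptor, differed by -0.94 and -1.17, and Shmt1, an enzyme of folate metabolism, by -2.14 and -2.51. The folate carriers Slc46a1 (0.47 and 0.57) and Slc19a1 (-0.01 and -0.41) were not called.

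Lists of other cell types that carry some of the 9 genes were counted in the same way. Of 10 Müller glia genes, 6 were called higher and 0 lower at each site, among them Dkk3 (2.60 and 2.40). Of 11 endothelial genes, 2 were called higher and 6 lower at the first site, and 1 and 5 at site 2, or 2 and 6 without cortex replicate 5, with Kdr at 2.16 and 2.05 and Cldn5 at -2.02 and -2.21. First-site sums over the 11 were 14.1 to 15.5 on retina arrays and 17.4 to 21.2 on cortex arrays. Of 4 red cell genes, 1 was called lower at each site, the globin Hba-a1 (-1.86 and -2.41), and first-site sums over the 4 were 12.2 to 15.6 on retina arrays and 43.1 to 53.0 on cortex arrays. Of 6 melanocyte and neural crest genes, 2 were called lower at the first site and 3 at site 2, or 2 without cortex replicate 5, with Sox10 at -3.14 and -2.02. Sox10 is also a gene of the oligodendrocyte lineage, and Kit, the other gene called lower at both sites, is also expressed by neurons. First-site sums over the 6 were 4.93 to 5.57 on retina arrays and 10.4 to 12.6 on cortex arrays. The part of any of these cell types in the 9 genes was not tested.

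Site 2 minus the first site was taken within each tissue, on RNA of the same pool. In retina 0 of the 9 genes were called in limma, against 6.24% of all probes, and 6 had an unadjusted p under 0.05 (share of all probes not counted). An adjusted p under 0.05 was reached by 3 (46.7% of probes, 24.2% lower at site 2). Those 3 were lower at site 2: Rdh5 by a log2 difference of -0.95 (adjusted p = 0.0011), Krt18 by -0.50 (adjusted p = 2.9e-04) and Folr1 by -0.39 (adjusted p = 0.0046). Rdh5 lay just under 2-fold, and it reached 2-fold without retina replicate 1 of the first site and without retina replicate 4 of site 2 (-1.04). Without cortex replicate 5 of site 2, which enters the shared estimate of the spread, 6 members had an adjusted p under 0.05 (54.1% of probes): the 3 above, Dct (-0.49, adjusted p = 0.0024), Rbp4 (-0.36, adjusted p = 0.030) and Rpe65, which was higher at site 2 (0.28, adjusted p = 0.040). Rdh5, Krt18 and Folr1 were also the ones whose retina arrays did not overlap between the sites, all 3 lower at site 2. The retina arrays did not overlap for 39.1% of all probes, and 22.3% of all probes were separate and lower at site 2. In cortex 0 of the 9 were called, against 7.21% of all probes, and 5 had an unadjusted p under 0.05 (share of all probes not counted). An adjusted p under 0.05 was reached by 3 (46.8% of probes, 23.1% higher and 23.7% lower at site 2). Ttr was higher at site 2 (0.42, adjusted p = 3.5e-04), and Rdh5 (-0.65, adjusted p = 0.016) and Rbp4 (-0.45, adjusted p = 0.024) were lower. Every Rdh5 value in cortex lay under the 25th percentile, and with dim values raised to that percentile its difference was 0. Without cortex replicate 5 the count with an adjusted p under 0.05 was 2 (52.1% of probes), as Rbp4 was at -0.32 (adjusted p = 0.062). No member's cortex arrays were separate between the sites, against 31.9% of probes. Without cortex replicate 5 those of 1 member were, but the share of all probes without that array was not counted.

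The difference between retina and cortex was itself compared between the sites by an interaction term in limma. None of the 9 genes was called, against 0.725% of all probes, and 4 had an unadjusted p under 0.05 (share of all probes not counted). An adjusted p under 0.05 was reached by 1 (3.98% of probes, 1.66% with a negative term). That 1 was Ttr, whose difference at site 2 minus that at the first site was -0.53 (SE 0.11, 95% interval -0.77 to -0.29, adjusted p = 0.014), with the cortex level higher at site 2 and the retina level not (-0.11, adjusted p = 0.26). After quantile normalization the same term was 0.01 (adjusted p = 0.95). Array maxima were 166 to 272 at site 2 and 98.4 to 125 at the first site. Among 282 probes with a mean intensity over 30, the median change in cortex, site 2 minus first site, was -0.03, and 19.9% of them changed by as much as Ttr or more. For Oca2 the term was 0.75 (95% interval 0.25 to 1.24, adjusted p = 0.080) and for Krt18 -0.45 (95% interval -0.73 to -0.17, adjusted p = 0.062). Without cortex replicate 5 of site 2 the Krt18 value was -0.51 (adjusted p = 0.021), so that 2 members passed (8.32% of probes). The Dct term, -1.08 (95% interval -2.50 to 0.33, adjusted p = 0.36), was -0.43 without that array (adjusted p = 0.12). Ttr and Oca2 were each called at 1 site only, and the change between sites passed the test for Ttr and not for Oca2.

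**Figure D4:**
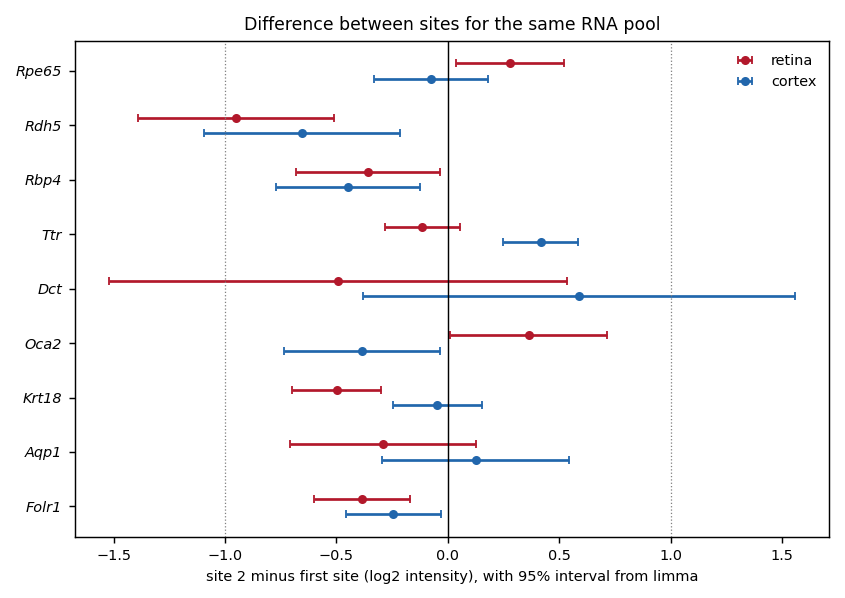
Log2 difference of intensity, site 2 minus the first site, of each gene in retina and in cortex, with 95% intervals from limma; dotted lines mark 2-fold. The points of all 9 genes lie within 2-fold in both tissues, with Rdh5 in retina nearest to it at -0.95, and Ttr in cortex, at 0.42, has an interval above 0.

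For each of the 9, the named genes with the closest pattern were found by the root mean square distance of log2 intensity over the arrays, after the mean of each probe was subtracted. Folr1 had the closest neighbours, Ckmt1 (0.12) and Oxld1 (0.13), and Ttr followed with Mapk8ip1 (0.13) and Pgls (0.14). Rbp4 was closest to Aspscr1 and Arsa (0.18 each), and Oca2 to Eif4ebp1 and Bhlhb9 (0.23 each). The genes with large differences had more distant neighbours: Krt18 had Stx3 (0.25) and Prom1 (0.29), Rpe65 had Alpl (0.27) and Plekhb1 (0.28, 19 arrays), Aqp1 had Cxcl16 (0.30) and Fn3k (0.31), Dct had Ephx2 (0.33) and Gem (0.35, 19 arrays), and Rdh5 had Slc31a2 and Car2 (0.36 each). By Pearson correlation across the arrays, which share 2 pools, 1 of these 18 neighbours, Arsa, was again among the nearest pair. Among the 9 themselves the closest pair was Rpe65 and Krt18, at 0.37.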

How the data were processed

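The values used were the deposited intensities of 10500 probes, linear and 1 for each array, whose 20 columns were each matched to a labelled array. Per the labels' protocols, RNA was labelled by the CodeLink assay. How the authors scanned, background-corrected and scaled the arrays is not stated there. Values at or below 0 (143) were treated as missing, as were 2080 blanks; of 180 values of the 9 genes 2 were blank. Array medians of log2 intensity differed by at most 0.0594, under a limit of 0.1, so no further normalization was applied.

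Probes were named from the platform annotation: 9378 had 1 symbol, 8 several and 1114 none. Entrez identifiers of 9323 were found in a RefSeq table of assembly GRCm38.p6, which changed 0 symbols. A probe with a value on at least 3 arrays of each group was tested (10339 probes, 161 left out). Means of the 4 groups were fitted to log2 intensity in limma 3.58.1 (R 4.3.3, lmFit and eBayes), with 2-sided p-values adjusted by Benjamini-Hochberg over all probes tested and intervals at 95%. The fit was tested on simulated data. Tables and plots used Python 3.11.15, numpy 2.4.6, pandas 2.3.3 and matplotlib 3.10.9. Alternatives were other floors and offsets for dim values, quantile normalization, other filters, array weights, a fit of 2 groups, a replicate block, and leaving out each array. A list gene with several probes was read from its brightest probe over the 20 arrays. Genes named from the other lists are mostly among the 2 with the largest difference in each direction called at both sites, and some lists are given by counts alone; any gene of the visual cycle, melanin, pigment epithelium and choroid plexus lists could be named, and others named beside them were chosen after their values were seen. The 9 genes and the lists were chosen with earlier results of these data known.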

Additional observations from a re-analysis of the deposited data

Results flagged for a closer look

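Among 36 groups of arrays, 4 held an array whose distance from the nearest of the others, relative to the range of the group, was above Dixon's critical value of 0.71 for 5 samples; a criterion at the 95% level marks some groups by chance. Dct read 2.04 on replicate 5 of cortex at site 2, against 0.195 to 0.226 on the other 4 arrays (ratio of gap to range 0.937), and 2.89 on replicate 2 of retina at site 2, against 1.98 to 2.09 on the others (0.860). Oca2 read 0.905 on replicate 4 of cortex at the first site, against 0.674 to 0.715 (0.797). Ttr read 34.2 on replicate 5 of retina at the first site, against 36.6 to 37.5 (0.735). The first of these arrays also stood apart on 17.7% of all probes.

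The difference between retina and cortex changed between the sites for Ttr, by -0.531 on the log2 scale in limma (adjusted p = 0.014), and by -0.59 without cortex replicate 5 of site 2 (adjusted p = 0.0029). After quantile normalization the same limma term was 0.014 (adjusted p = 0.95), so the change depends on how the arrays are scaled. In cortex 4 of 5 site 2 arrays were above every first-site array.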

How the results depend on the processing

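Of 1376 values of the 9 genes under the alternatives, 1357 kept direction and side of the call, 0 lost a call, 4 gained one and 15 changed sign. The causes were not tested. Leaving out an array of neither group cannot move the difference between 2 groups, so the direction of many of these values was fixed in advance. A difference of exactly 0 was counted as kept. It arose for Rdh5 between the sites in cortex, with dim values raised to the 25th percentile. The 7 members called at each site between the tissues stayed 7 without any single array, and 5 were left with a value required on all 20 arrays, which drops Rpe65 and Dct. Ttr at the first site was called after quantile normalization (-1.02), as was Rdh5 between the sites in cortex (-1.04), which made 1 member called there. Between the sites in retina, leaving out an array gave 0 to 1 members called (Rdh5). With adjusted p alone, 6192 probes passed between the tissues at the first site and 6247 at site 2, with 411 in the interaction (1 member), 4825 between the sites in retina (3 members) and 4841 in cortex (3 members), against 2574, 2542, 75, 645 and 745 called. The interaction count was 35 with an offset of 0.1, 160 with array weights and 56 to 121 without 1 array (121 without cortex replicate 5 of site 2). Between the sites, raising dim values to the 25th percentile left 312 probes called in retina and 396 in cortex, and an offset of 0.1 left 255 and 370.

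Sign changes in the interaction came with quantile normalization for Rdh5 (0.14), Ttr (0.014) and Krt18 (0.087), and for Rbp4 with array weights (-0.030) and without 1 array (-0.035 to 0.21). Between the sites they came in retina for Ttr (0.11, quantile), and in cortex for Rpe65 (0.046, 25th percentile floor), Aqp1 (-0.16, quantile; -0.013 to 0.22 without 1 array), Dct (-0.047, array weights; -0.064 to 0.78 without 1 array) and Krt18 (0.0045, array weights; -0.091 to 0.010 without 1 array).

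Replicate numbers did not pair the arrays: correlations of same-numbered arrays were -0.107 to 0.0773. In 5 of 30 comparisons of an array with the arrays of another group, its own number was closest. With a replicate block 2573 probes and 7 members were called between the tissues at the first site. It called 2534 and 7 at site 2, 63 and 0 in the interaction, 639 and 0 between the sites in retina, and 740 and 0 in cortex. Low cortex values of Rpe65, Rdh5 and Krt18 limit the size of their differences.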
